A study of Mus musculus with 15 samples.

Results

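Klf3 KO TER119 negative cells were compared with WT TER119 negative cells from fetal liver. The comparison comprised 8 of the 15 arrays of the series, 4 titled KO and 4 titled WT, and was read over 19938 genes, each represented by the probe set with its highest mean over the 15 arrays among those with 1 gene symbol. All embryos were of the FVB/NJ strain and were taken at E14.5 (mid-gestation). The KO group carried the Klf3 knockout and the WT group was wildtype, and no other allele, agent or treatment is named for either. The 7 other arrays, 3 KO and 4 WT, held TER119 positive cells of the same stage and strain. Cells were separated by magnetic beads against TER119, with the negative cells taken as what passed through a depletion column, and their total RNA was hybridised to Affymetrix MoGene-1_0-st arrays. The labels do not say whether replicates came from separate embryos, nor whether livers were pooled. The p-values therefore reflect the spread between arrays, pooled over all 15 of the series, and some of it may be technical. Precision is limited by how few arrays there were.

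KLF3 is a zinc finger repressor of the Krüppel-like factor family. It binds CACCC-type sites and recruits the CtBP corepressors, and its gene is itself a target of KLF1, the activator that drives much of the red cell programme. TER119 is a surface antigen that appears as erythroblasts mature, so the depleted fraction of fetal liver holds progenitors, the earliest erythroblasts, myeloid cells and part of the liver's own cells.

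Values are log2 intensities after RMA, so a difference of 1 is a doubling, and every difference is KO-labelled minus WT. RMA compresses differences between dim probe sets, and the files carry no detection calls, so whether a low value stands above background is not known. Markers of the labelled cells differed between the fractions. Kit, the receptor of early progenitors, lay at 8.47 to 9.62 in TER119 negative arrays against 6.03 to 6.87 in TER119 positive arrays, and Slc4a1, the anion exchanger of maturing red cells, at 7.45 to 8.82 against 13.19 to 13.31. Ptprc, the pan-leukocyte antigen CD45, lay at 9.48 to 10.01 in TER119 negative and 6.71 to 7.20 in TER119 positive arrays. Alb, the albumin of hepatocytes, read 8.37 to 11.35 in TER119 negative and 13.48 to 13.70 in TER119 positive arrays. Array correlations lay between 0.982 and 0.995 among the KO-labelled and between 0.971 and 0.990 among the WT TER119 negative arrays. KO-labelled replicate 4 and WT replicates 2 and 4 stood apart on the first principal component of the 8 arrays, which held 54.2% of the variance. By Xist and the Y-linked genes, 1 male and 3 female arrays made up the KO-labelled group, and the WT group had 4 male arrays and 0 female ones. Genotype and sex were therefore largely aligned, and the male KO-labelled array is replicate 2, the second value wherever the 4 KO-labelled values are given.

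The targeted gene did not separate the genotypes. Klf3 stood at 8.02, 8.49, 8.74 and 8.09 in KO-labelled cells, with 8.80, 8.22, 8.55 and 7.94 in WT cells. The groups overlapped almost fully, and the difference was -0.04, with a 95% interval of -0.44 to 0.36. Which part of the gene was deleted is not given in the labels, so the probe set may lie outside it and is no check of the labels. Genotype is thus taken from the labels alone, and the arrays are called KO-labelled.

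A small set of genes differed between the genotypes in TER119 negative cells, nearly all of them higher in KO-labelled cells. By the moderated test of limma, adjusted by Benjamini-Hochberg with a threshold of 0.05, 15 genes rose, which is 0.0752% of those tested, and 2 fell, which is 0.01%. Together the 17 made up 0.0853% of all genes. All 15 that rose did so by at least 1.5-fold, and 0 of the 2 that fell reached that size. Before adjustment 1508 genes had a p under 0.05, 743 higher and 765 lower. The median difference over all genes was -0.02, and 46.2% of genes lay above 0. The 17 genes lay on 10 chromosomes, and 3 of them (Klf8, Pir and Mir532) were on the X chromosome, which held 3.71% of the genes tested. In cells sorted in bulk, a change in RNA per cell and a change in the share of cells that make it cannot be told apart.

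**Figure D1:**
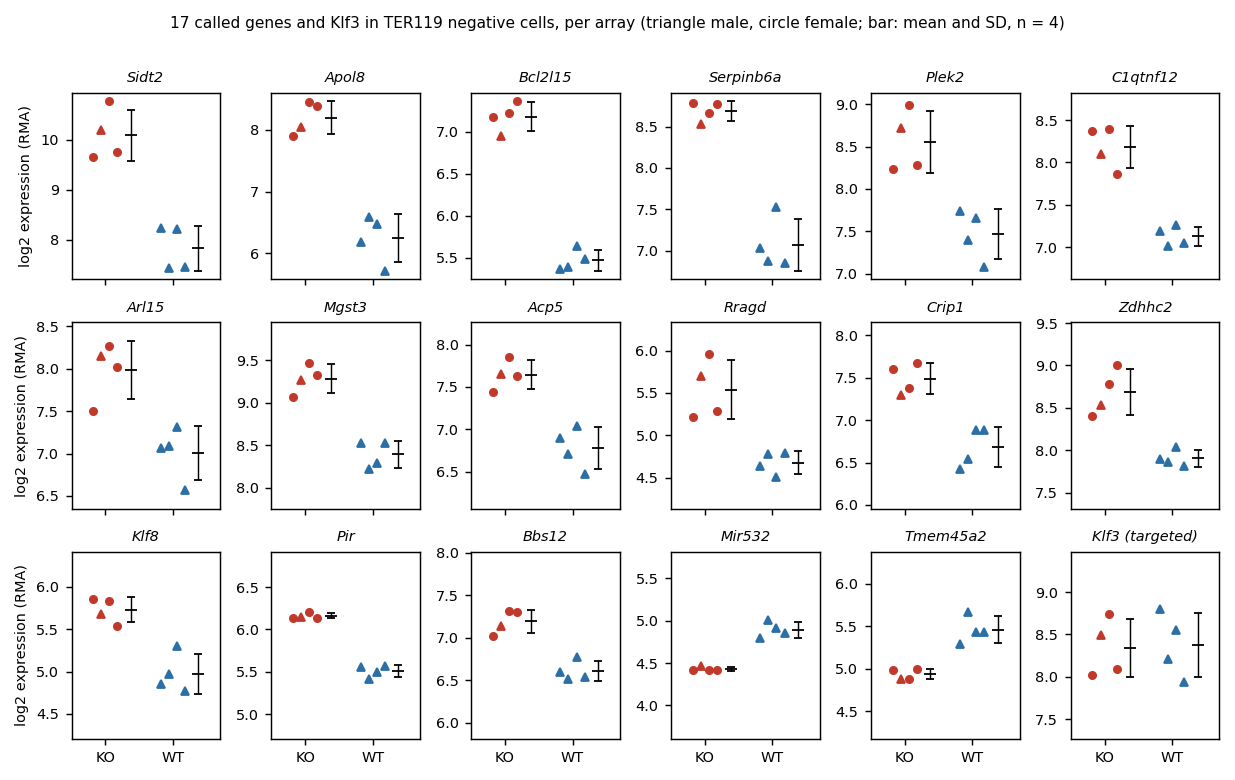
Log2 expression (vertical axes, RMA) of the 17 genes past the threshold and of Klf3 in each TER119 negative array, KO-labelled on the left and WT on the right of each panel; triangles are male and circles female arrays, and the bars give the mean and SD of 4 arrays. The groups do not overlap in any of the 17 panels of called genes, and for Klf3 they do.

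Absence of overlap alone was common: 243 genes (1.22%) had all 4 KO-labelled values above all 4 WT values and 281 (1.41%) had them all below.

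The sequences below show the start regions of 3 genes that moved differently between the populations (Bcl2l15, which rose in TER119 negative cells, and Rragd and Klf8, which rose far more in TER119 positive cells), chosen after their values were seen. Each is the RefSeq window of 300 bases on GRCm38.p6, from 250 bases before to 50 after an annotated start, written 5′ to 3′ on the gene's strand, with the core of the KLF site, CACCC, and its reverse complement, GGGTG, in capitals.
Bcl2l15, chr3:103832446-103832745, plus strand: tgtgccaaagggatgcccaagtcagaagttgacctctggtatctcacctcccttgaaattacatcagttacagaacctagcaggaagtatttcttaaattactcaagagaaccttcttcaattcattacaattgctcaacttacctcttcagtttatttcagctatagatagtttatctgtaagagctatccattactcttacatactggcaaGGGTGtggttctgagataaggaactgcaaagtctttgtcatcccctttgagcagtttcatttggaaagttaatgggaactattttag
Rragd, chr4:32982748-32983047, plus strand: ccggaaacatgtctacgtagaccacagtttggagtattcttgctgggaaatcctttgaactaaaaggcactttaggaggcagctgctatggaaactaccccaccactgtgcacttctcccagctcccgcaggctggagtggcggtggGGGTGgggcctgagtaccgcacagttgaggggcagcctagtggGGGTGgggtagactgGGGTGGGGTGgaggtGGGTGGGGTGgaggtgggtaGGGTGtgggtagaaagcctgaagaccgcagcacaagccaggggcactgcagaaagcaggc
Klf8, chrX:153237498-153237797, plus strand: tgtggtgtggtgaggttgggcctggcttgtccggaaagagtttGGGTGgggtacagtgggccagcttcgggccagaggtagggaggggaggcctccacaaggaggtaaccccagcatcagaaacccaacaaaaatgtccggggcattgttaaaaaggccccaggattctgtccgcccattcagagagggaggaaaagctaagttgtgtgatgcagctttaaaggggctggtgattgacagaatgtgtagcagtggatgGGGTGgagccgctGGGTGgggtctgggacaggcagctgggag

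Bcl2l15 held 1 match, Rragd 7 and Klf8 3, the same number as at the other annotated start of Klf8. Of the called genes, 13 had such a window and 8 of these (61.5%) held the motif on either strand in at least 1 window. Among the 15614 measured genes with a window outside chromosome 18, which was left out of the count, the share was 63.5%. Of the 32851 windows outside that chromosome 57.5% held it, so the called genes' share was close to the general one.

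The largest rise was in Sidt2, a lysosomal membrane protein of the SID1 family that takes part in moving nucleic acids into lysosomes. It stood at 9.65, 10.20, 10.78 and 9.76 in KO-labelled cells, against 8.22, 7.43, 8.21 and 7.44 in WT cells. The lowest KO-labelled array lay well above the highest WT array, although each group spread widely. The difference was 2.27 (SE 0.23, adjusted p = 0.000154), or 4.83-fold. Apol8, of the apolipoprotein L family, was at 7.90, 8.04, 8.45 and 8.39 in KO-labelled and at 6.19, 6.59, 6.47 and 5.72 in WT cells. It rose by 1.96 (SE 0.18, adjusted p = 5.69e-05), or 3.88-fold.

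Bcl2l15, which belongs to the BCL2 family that governs apoptosis, had the lowest p of all genes. Its values were 7.17, 6.95, 7.23 and 7.36 in KO-labelled cells and 5.36, 5.39, 5.64 and 5.49 in WT cells, tight groups far apart. The mean was 7.18 ± 0.17 in KO-labelled and 5.47 ± 0.13 in WT cells (SD, n = 4 each), a difference of 1.71 (SE 0.12, adjusted p = 2.4e-06), or 3.27-fold. Serpinb6a, an intracellular inhibitor of serine proteases, was at 8.78, 8.53, 8.67 and 8.77 in KO-labelled and at 7.03, 6.88, 7.53 and 6.85 in WT cells. The KO-labelled arrays lay close together, and the WT spread came mainly from replicate 3. The difference was 1.62 (SE 0.14, adjusted p = 4.57e-05), or 3.07-fold.

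Of 3 genes listed here as reported to be repressed by KLF3, a list drawn up with earlier results of these data known, 2 rose. C1qtnf12, which encodes the secreted insulin-sensitising factor adipolin, read 8.37, 8.10, 8.40 and 7.87 in KO-labelled cells and 7.19, 7.01, 7.26 and 7.05 in WT cells. It rose by 1.06 (SE 0.12, adjusted p = 0.000488). Klf8, a repressor from the same family as KLF3, was dim, with 5.85, 5.68, 5.84 and 5.54 in KO-labelled and 4.85, 4.97, 5.31 and 4.77 in WT cells. Its difference was 0.75 (SE 0.11, adjusted p = 0.0148). Klf8 is X-linked, and its male KO-labelled value was 5.68. Lgals3, the galectin-3 gene, read 7.86, 7.32, 7.20 and 7.65 in KO-labelled and 7.01, 7.48, 7.16 and 7.51 in WT cells, a difference of 0.22 (adjusted p = 0.682) with overlapping groups. It did rise in TER119 positive cells, by 2.94 (10.52 in KO-labelled against 7.58 in WT arrays), and its effects differed by -2.73 (SE 0.21, adjusted p = 1.03e-06). Reports on these targets may rest in part on these samples, so the count of 2 is not independent evidence of a direction.

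Mgst3, a microsomal glutathione transferase and peroxidase, stood at 9.06, 9.27, 9.47 and 9.33 in KO-labelled cells, against 8.52, 8.22, 8.29 and 8.53 in WT cells, and rose by 0.89 (SE 0.10, adjusted p = 0.000488). Acp5, tartrate-resistant acid phosphatase, a lysosomal enzyme best known from osteoclasts, had 7.43, 7.65, 7.85 and 7.63 in KO-labelled cells and 6.90, 6.70, 7.04 and 6.47 in WT cells. It rose by 0.87 (SE 0.12, adjusted p = 0.00758). Zdhhc2, a protein palmitoyltransferase, was at 8.41, 8.54, 8.79 and 9.01 in KO-labelled and 7.89, 7.86, 8.04 and 7.81 in WT cells, a difference of 0.78 (adjusted p = 0.0157). In each of these 3 genes the KO-labelled and WT arrays formed separate ranges, although the gap was under 1 log2 unit.

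The small GTPases Arl15, of the ARF-like family, and Rragd, a Rag GTPase that passes amino acid signals to mTORC1, rose by similar amounts. Arl15 read 7.50, 8.15, 8.26 and 8.03 in KO-labelled cells and 7.07, 7.08, 7.32 and 6.57 in WT cells, and differed by 0.98 (adjusted p = 0.0379). Rragd read 5.21, 5.71, 5.96 and 5.28 in KO-labelled cells and 4.63, 4.78, 4.51 and 4.79 in WT cells, and differed by 0.86 (adjusted p = 0.0236). In both, KO-labelled replicate 3 was highest and replicate 1 came nearest to the WT range. Plek2, a pleckstrin relative that organises actin in late erythroblasts, was at 8.23, 8.71, 8.99 and 8.28 in KO-labelled and at 7.74, 7.40, 7.65 and 7.08 in WT cells, and rose by 1.08 (adjusted p = 0.0349). Crip1, a small LIM-domain protein, was at 7.61, 7.30, 7.37 and 7.68 in KO-labelled and at 6.43, 6.54, 6.88 and 6.88 in WT cells, and rose by 0.81 (adjusted p = 0.0385).

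Pir encodes pirin, an iron-binding nuclear protein, and had the least spread of the called genes that rose. It stood at 6.14, 6.15, 6.20 and 6.14 in KO-labelled cells, against 5.55, 5.42, 5.49 and 5.57 in WT cells, a rise of 0.65 (SE 0.09, adjusted p = 0.00454). The gene is X-linked, and its male KO-labelled value was 6.15. Bbs12, a chaperonin-like protein needed to build the ciliary BBSome, was at 7.03, 7.14, 7.31 and 7.30 in KO-labelled and at 6.59, 6.52, 6.77 and 6.53 in WT cells, and rose by 0.59 (adjusted p = 0.0361).

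Both genes that fell were dim. Tmem45a2, a transmembrane protein gene, was at 4.98, 4.88, 4.88 and 4.99 in KO-labelled and at 5.29, 5.67, 5.43 and 5.43 in WT cells, a difference of -0.52 (adjusted p = 0.0377). The X-linked Mir532 probe set read 4.42, 4.47, 4.42 and 4.42 in KO-labelled and 4.79, 5.01, 4.91 and 4.86 in WT cells, a difference of -0.46 (adjusted p = 0.0475). KO-labelled replicates 1, 3 and 4 gave an identical value for this probe set. Such a probe set reads the precursor locus and does not tell the mature arms apart. The arm held by the RefSeq table is shown with its seed, bases 2 to 8, in capitals, since the seed sets which messages a microRNA pairs with; it lies at chrX:7248419-7248440 on the minus strand of GRCm38.p6.
mmu-miR-532-3p: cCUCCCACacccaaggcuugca

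The calls differed in how far they held when the processing was varied over 20 other settings, and 0 of the 17 differences changed direction. Bcl2l15 stayed past the threshold in 20 of 20 settings, Sidt2 in 19, Apol8 and Serpinb6a in 18, C1qtnf12 and Mgst3 in 17, Acp5 in 16 and Pir in 15. Among the 20 settings were 8 that each left out 1 of the 8 arrays, and these 8 genes kept their calls in every one. Plek2 was kept in 11 settings, Zdhhc2 in 9, and Arl15 and Crip1 in 7 of the 20. For the 5 genes whose mean over all 15 arrays was under the filter of 6, which took Bbs12 out through its low TER119 positive values, the counts were 10 of 19 for Klf8, 7 for Rragd, 5 for Bbs12, 4 for Tmem45a2 and 2 for Mir532. With a sex factor fitted in each population only Bcl2l15 passed, at a difference of at least 1.48 over all settings, and with the male arrays alone (1 KO-labelled and 4 WT, the lone array assumed to vary like the others) Bcl2l15 and Sidt2 passed. Without the 3 arrays that stood apart, 6 of the 17 passed. With the spread taken from the TER119 negative arrays alone 4 passed, Sidt2, Apol8, Bcl2l15 and Serpinb6a.

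**Figure D2:**
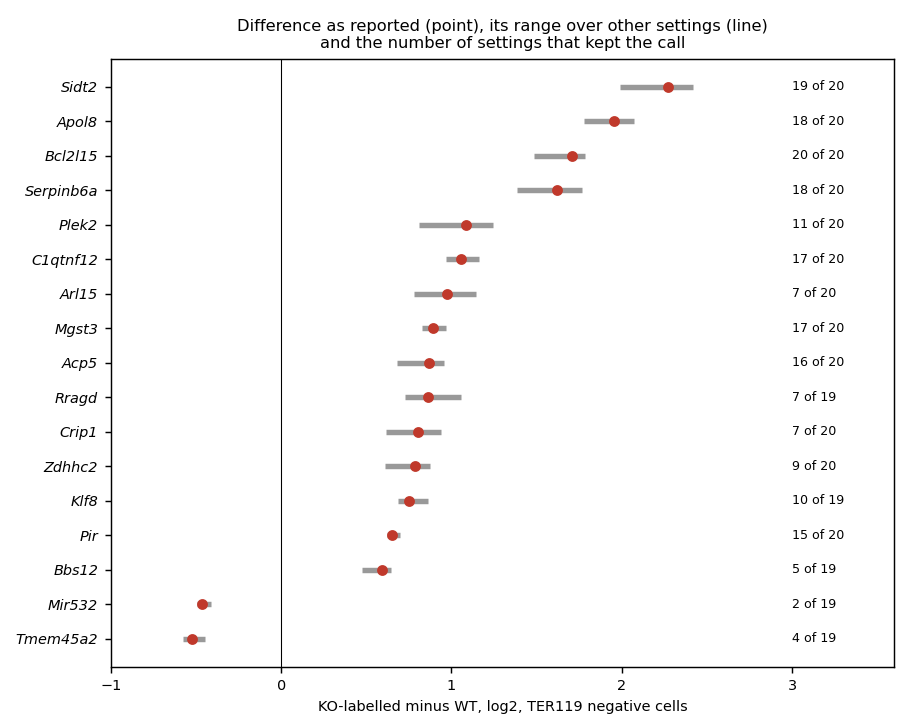
Difference KO-labelled minus WT (horizontal axis, log2) for the 17 called genes in TER119 negative cells, with the reported value as a point, the range over the other settings as a grey line, and on the right the number of settings in which the gene passed the threshold. Each line lies on 1 side of 0, and Bcl2l15 passed in 20 of 20 settings.

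The same contrast was available in TER119 positive cells, which share no array with it, although 1 model with a common spread was fitted to both. There 203 genes (1.02%) passed the threshold, 180 of them higher and 23 lower. Of the 17 genes called in TER119 negative cells 9 were also among these, which is 52.9% of the 17 and 4.43% of the 203, and all 9 had the same sign. Of the 180 genes higher in KO-labelled TER119 positive cells, 141 lay above 0 in TER119 negative cells, with a median difference of 0.15. Of the 23 lower genes, 14 lay below 0, with a median of -0.04. Over all genes 46.2% lay above 0 and the median was -0.02. The 180 include the genes called in both populations, which lay above 0 by that choice.

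For the difference between populations all arrays were treated as independent, and any link between fractions of the same liver was not tested. The effect itself differed between the populations for 87 genes (0.436%), being more positive in TER119 negative cells for 13 and less so for 74. Among the 17 called genes it differed for 7. Bcl2l15 had its rise in TER119 negative cells and averaged 5.88 ± 0.19 in KO-labelled (SD, n = 3) and 5.91 ± 0.16 in WT TER119 positive cells (SD, n = 4). The difference between its effects was 1.74 (SE 0.17, adjusted p = 3.43e-05), and it passed in 25 of 25 other settings. Serpinb6a (1.03, adjusted p = 0.037) and Bbs12 (0.72, adjusted p = 0.0384) also had the larger effect in TER119 negative cells, but passed in only 10 of 25 and 6 of 24 settings.

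For 4 genes the effect was smaller in TER119 negative cells. Rragd rose by 4.77 in TER119 positive cells, so that its effects differed by -3.90 (adjusted p = 4.48e-08). Klf8 rose there by 3.06 (difference of effects -2.31, adjusted p = 8.6e-07). C1qtnf12 rose there by 3.34 (difference of effects -2.29, adjusted p = 1.03e-06), and Arl15 by 2.33 (difference of effects -1.36, adjusted p = 0.0167). In TER119 positive cells Rragd, Klf8, C1qtnf12 and Arl15 averaged 9.45, 7.78, 8.96 and 9.01 in KO-labelled arrays, against 4.68, 4.71, 5.62 and 6.67 in WT arrays. Rragd, Klf8 and C1qtnf12 passed in every setting tried for this difference (24, 24 and 25), and Arl15 in 22 of 25.

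**Figure D3:**
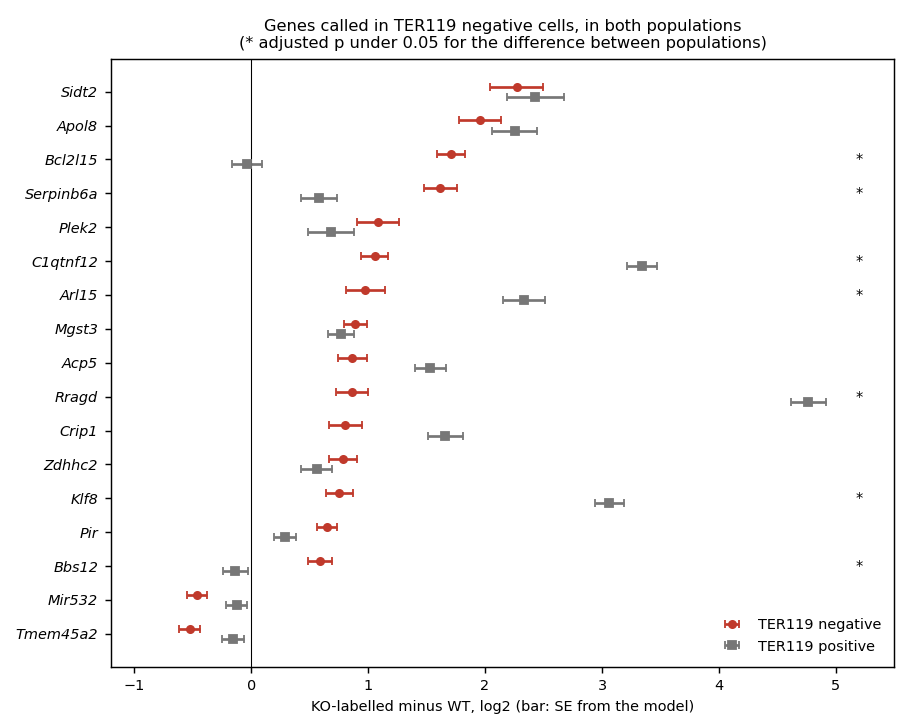
Difference KO-labelled minus WT (horizontal axis, log2, bars are the model's SE) for the 17 genes called in TER119 negative cells, in TER119 negative cells (red circles) and TER119 positive cells (grey squares); an asterisk marks an adjusted p under 0.05 for the difference between populations. Rragd stands at 0.86 in TER119 negative against 4.77 in TER119 positive cells, and Bcl2l15 at 1.71 against -0.03.

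Sidt2, Apol8 and Mgst3 rose in both populations. Sidt2 differed by 2.27 in TER119 negative and 2.43 in TER119 positive cells, Apol8 by 1.96 and 2.25, and Mgst3 by 0.89 and 0.77. The differences between effects were -0.16 (SE 0.34), -0.30 (SE 0.26) and 0.12 (SE 0.15), none past the threshold. Acp5 (0.87 and 1.53) and Crip1 (0.81 and 1.66) were called in both populations, and the differences between their effects had adjusted p of 0.291 and 0.137. Plek2, Zdhhc2, Pir, Mir532 and Tmem45a2 were called in TER119 negative cells alone, but the difference between populations did not pass for any of them.

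Some genes that rose in TER119 positive cells had a smaller effect in TER119 negative cells and did not pass there. Leaving out the genes called in TER119 negative cells, of which Rragd had the lowest p of all, the 5 with the lowest p for the difference between populations were Cttnbp2nl (0.15 in TER119 negative, 2.69 in TER119 positive cells), Pqlc3 (0.58 and 4.09), Hydin (-0.02 and 2.53), Supt3 (0.11 and 2.84) and Setd4 (0.26 and 2.15). They encode a cytoskeletal adaptor, a PQ-loop membrane protein, a protein of motile cilia, a subunit of the SAGA coactivator and a SET-domain protein. The differences between their effects were -2.54, -3.51, -2.55, -2.73 and -1.89, with adjusted p between 5.7e-08 and 8.6e-07.

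The 10 genes just outside the threshold were mostly higher in KO-labelled cells. Cast, the calpain inhibitor calpastatin, read 9.35, 9.54, 9.64 and 9.59 in KO-labelled cells and 8.93, 9.12, 9.02 and 8.86 in WT cells (0.55, adjusted p = 0.0503). Glipr2 differed by 0.62 (adjusted p = 0.0503), Mfsd9 by 0.50 (0.0583 after adjustment), Tmod1, the actin-capping tropomodulin of the red cell skeleton, by 0.92 (0.0584), Dffb, the nuclease that cuts DNA in apoptosis, by 0.80 (0.0742) and Sbds, a ribosome assembly factor, by 0.56 (0.0818). Ifi30 (0.51), Anxa2 (1.09) and Orm1 (-0.77) each had an adjusted p of 0.134. Chil3, a chitinase-like protein of myeloid cells, ranged over 8.64 to 9.46 in KO-labelled and 9.77 to 10.23 in WT cells (-0.85, adjusted p = 0.0583). In each of the 10 the KO-labelled and WT arrays did not overlap, which their choice by low p makes likely. Of all genes, 1.22% lay wholly above the WT range and 1.41% wholly below it.

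No measured close relative of the genes that rose or fell passed the test with them. Of 7 measured APOL genes Apol8 alone rose, with the others between -0.45 (Apol7d, adjusted p = 0.644) and 0.05, Apol6 at -0.28. Of 24 clade B serpins Serpinb6a alone rose. Its neighbours in p were Serpinb12 (-0.20) and Serpinb6b (0.29), both with an adjusted p of 0.655, and the median of the family was -0.09. Of 22 BCL2 family genes Bcl2l15 alone rose, followed by Bcl2l13 (0.31) and Bik (0.20) with an adjusted p of 0.655, at a family median of -0.01. Among 20 Rag GTPases and partners Rragd alone rose, with Slc38a9 at 0.30 and Mitf at -0.30, and Rraga, Rragb and Rragc between 0.02 and 0.06.

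These families, and the smaller ones here, were chosen because they hold a called gene, so the call of that member was given. In the smaller families too no other measured relative passed. Mgst3 rose among 6 MAPEG enzymes (Alox5ap -0.23, Mgst1 -0.25). Of 20 ARL GTPases listed only 8 were measured, and Arl15 rose among these (Arl14 -0.27, Arl1 0.25). C1qtnf12 rose among 9 C1q and TNF related proteins (C1qtnf2 -0.34, C1qtnf9 -0.29). Crip1 was followed by Crip2, which differed by 0.84 with a larger SE of 0.18 (adjusted p = 0.158), among 6 CRIP and CSRP genes. Of 5 measured microRNAs of the Mir532 cluster Mir532 alone fell, while Mir188 differed by -0.49 (adjusted p = 0.636) and Mir501 by -0.15. Sidt1 (-0.04), Plek (-0.14), Tmem45a (-0.13) and Tmem45b (0.13), the relatives of Sidt2, Plek2 and Tmem45a2, did not pass.

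Of 25 measured KLF and SP genes 1 passed, Klf8, at a median of -0.08 for the family. Sp4 differed by 0.62 (adjusted p = 0.139) and Klf9 by 0.38 (0.622), and Klf1, the erythroid activator, by 0.03. None of 15 corepressor partners of KLF3 passed. Ehmt2 differed by -0.15, Zfp217 by 0.19 and Ctbp1 by 0.11, around a median of 0.07, and 0 had an unadjusted p under 0.05.

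Most red cell genes lay above 0, but few passed the test. Of 31 measured genes that KLF1 is reported to activate, 1 rose (Klf8), 28 lay above 0 and the median difference was 0.33, beside -0.02 over all genes. Tmod1 (0.92) and Alas2, the first enzyme of haem synthesis in red cells (0.68, adjusted p = 0.226), came next. Of 26 red cell membrane and skeleton genes 0 passed and 24 lay above 0, at a median of 0.30, with Slc4a1 at 0.53 and the adducin gene Add2 at 0.74 (both with an adjusted p of 0.622). Of 30 haem and iron genes 0 passed, at a median of 0.19, with the biliverdin reductase Blvrb at 0.45 and the mitochondrial carrier Slc25a38 at 0.61. Without the 3 arrays that stood apart the 3 medians were 0.12, 0.09 and 0.00, and with the hepatocyte list as a covariate 0.09, 0.09 and 0.02. At an unadjusted p under 0.05 the KLF1-activated list had 10 genes, the membrane list 8 and the haem list 5, beside 7.56% of all genes.

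Of 28 late maturation genes Plek2 alone passed, at a median of 0.06 (Gabarapl2 and Ulk1 0.24 each). None of 32 erythroid transcription regulators passed, with E2f2 at 0.37, Ldb1 at 0.36 and E2f4 at 0.46. Their median of 0.10 became -0.05 without the 3 arrays and -0.09 with the covariate. None of 22 early progenitor genes passed (median 0.10, Tspo2 0.49, Slc22a4 0.50, Nr3c1 0.19), nor any of 22 stem cell regulators (median -0.13, Mycn -0.33, Egfl7 0.31, Erg -0.28). Of 5 globins with a probe set of their own 0 passed, at a median of -0.60. The embryonic globins Hba-x and Hbb-y differed by -1.09 and -1.10, with adjusted p of 0.644 and 0.655. Hba-x ranged over 6.41 to 7.88 in KO-labelled and 6.79 to 9.47 in WT arrays, and Hbb-bh1 was the median gene of the list. Unadjusted, 4 regulators, 2 early progenitor genes, 1 stem cell regulator and 2 globins had a p under 0.05, beside 7.56% of all genes.

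**Figure D4:**
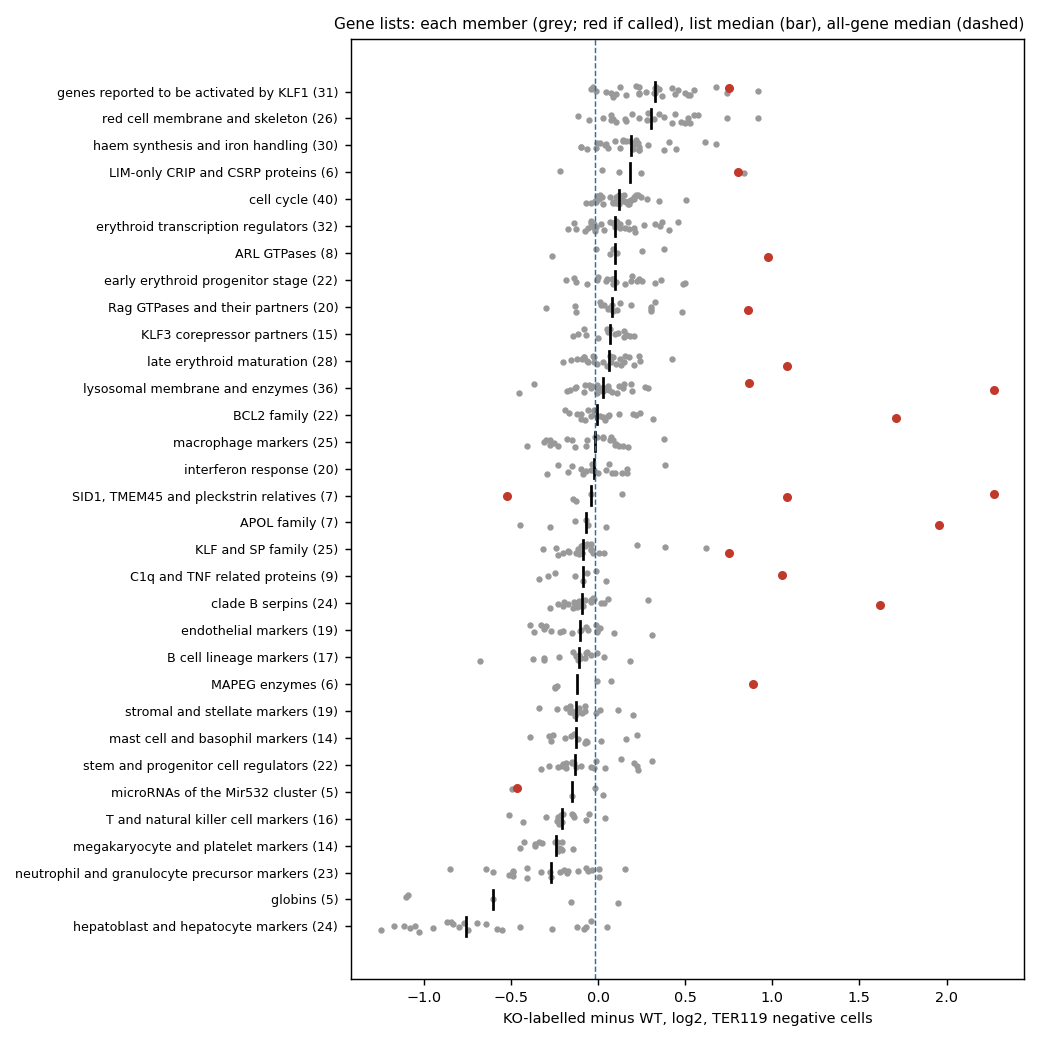
Differences KO-labelled minus WT (horizontal axis, log2) in TER119 negative cells for the members of each list with at least 5 measured genes (rows, number measured in brackets), grey for genes that did not pass and red for called genes, with the list median as a black bar and the all-gene median as a dashed line. The hepatocyte list has a median of -0.76 and the KLF1-activated list one of 0.33.

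Lysosomal, interferon and cell cycle lists had medians between -0.02 and 0.12. Of 36 lysosomal genes Sidt2 and Acp5 passed, the median was 0.03 and Cd63 differed by -0.45 (adjusted p = 0.644). This list, like the others, was drawn up with earlier results of these data known, so its calls are no independent survey of lysosomal genes. None of 20 interferon response genes passed (median -0.02, Oas2 -0.23, Ifih1 0.38, Rsad2 -0.29). Rsad2, an antiviral enzyme, rose by 1.12 in TER119 positive cells, and its effects differed by -1.41 (adjusted p = 0.0031). None of 40 cell cycle genes passed, although 35 lay above 0, at a median of 0.12. Cdkn2c, an inhibitor of the CDK4 and CDK6 kinases, differed by 0.50 (adjusted p = 0.615), Kif20a by 0.28 and Tyms by 0.22. The cell cycle median was 0.00 without the 3 arrays and -0.02 with the covariate. Unadjusted, 2 interferon and 3 cell cycle genes had a p under 0.05, beside 7.56% of all genes.

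For each of the 9 marker lists of other cell types the array means overlapped between the genotypes. The mean of the 24 hepatoblast and hepatocyte markers ranged over 5.48 to 6.74 in KO-labelled and 5.62 to 7.61 in WT arrays. It had 0 genes past the threshold, 1 of 24 above 0, and a median difference of -0.76, with Ttr at -1.24, Ahsg at -0.95 and Trf at -0.77 (adjusted p = 0.653 each). The part of this spread in the erythroid and called values was tested only through the covariate, under which 10 of the 17 calls remained. The 14 megakaryocyte and platelet markers ranged over 7.47 to 9.06 in KO-labelled and 7.86 to 9.20 in WT arrays, with 0 of 14 above 0 and a median of -0.24 (Treml1 and Thbs1 -0.36 each, Rab27b -0.32). That median became 0.14 with the covariate, but -0.40 without the 3 arrays that stood apart, -0.49 with the sex factor and -0.19 after median centring.

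**Figure D5:**
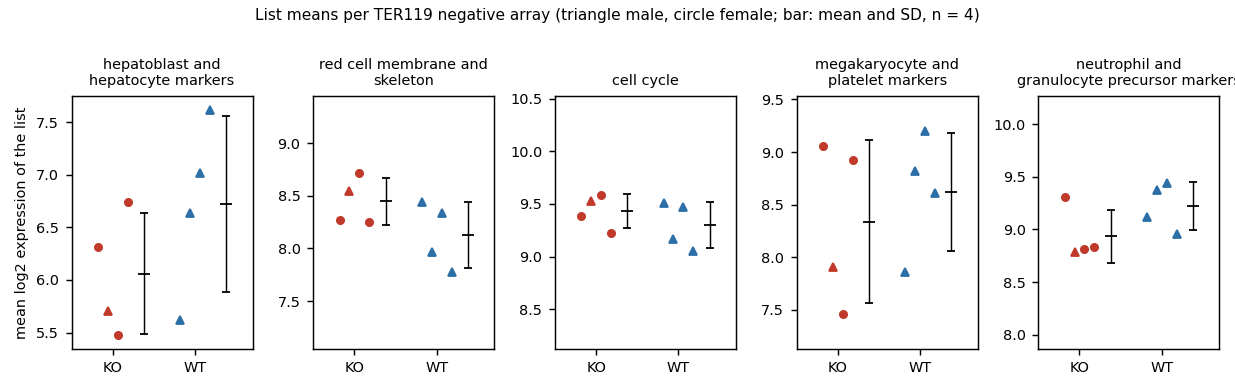
Mean log2 expression (vertical axes) of 5 gene lists in each TER119 negative array, KO-labelled on the left and WT on the right; triangles are male and circles female arrays, and bars give the mean and SD of 4 arrays. The groups overlap in all 5 panels, and the hepatocyte list spans 5.48 to 6.74 in KO-labelled and 5.62 to 7.61 in WT arrays.

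Myeloid and lymphoid marker lists had medians between -0.27 and -0.02. The 23 neutrophil and granulocyte precursor markers had 0 genes past the threshold, 3 above 0 and a median of -0.27. After Chil3 came the neutrophil elastase gene Elane (-0.49) and Retnlg (-0.64), both with an adjusted p of 0.622. The list's mean ranged over 8.79 to 9.31 in KO-labelled and 8.96 to 9.44 in WT arrays. The 25 macrophage markers had a median of -0.02 (Mrc1 -0.41, Slc40a1 0.38, Vcam1 -0.31) and overlapping means of 5.82 to 5.99 in KO-labelled and 5.87 to 6.06 in WT arrays. Acp5, which macrophages also express, rose by 0.87 beside them, and the part of such cells in that rise was not tested.

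Of 17 B lineage markers 0 passed (median -0.11), with the surrogate light chain gene Igll1 at -0.67 (adjusted p = 0.517), Rag2 at -0.31 and Il7r at -0.31. Of 16 T and natural killer markers 0 passed (median -0.21), with the granzyme gene Gzmb at -0.51 (adjusted p = 0.458), Cd247 at -0.22 and Eomes at -0.30. The mean of the T and natural killer markers was 4.96 to 5.16 in KO-labelled and 5.14 to 5.34 in WT arrays. None of 14 mast cell and basophil markers (median -0.13, Prss34 -0.39, Ms4a2 -0.28, Cpa3 -0.27), 19 endothelial markers (median -0.11, Egfl7 0.31, Clec14a -0.33, Cdh5 -0.27) or 19 stromal markers (median -0.13, Lrat -0.34, Lox -0.15, Des -0.13) passed in the limma fit. At an unadjusted p under 0.05 there were 5 hepatocyte, 4 macrophage, 8 neutrophil, 4 B lineage and 4 T and natural killer markers. There were 1 mast cell, 1 stromal, 0 megakaryocyte and 0 endothelial markers, beside 7.56% of all genes.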

How the data were processed

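Per the submitters' processing notes, the authors made the deposited values with RMA and Partek (versions not given in the sources used here), which gives background-corrected, quantile-normalised log2 intensities per probe set. Of 35399 probe sets, 21789 had 1 gene symbol, 1621 several and 11989 are unnamed here, which left 19938 genes after the brightest probe set over the 15 arrays was kept for 999 genes with several. The RefSeq table (GRCm38.p6) matched 21698 probe sets and changed 0 symbols. All 15 arrays entered limma 3.58.1 (R 4.3.3) with a mean per group and no covariate or filter (11 residual and 4.91 prior degrees of freedom, prior SD 0.173), with Benjamini-Hochberg adjustment over all genes, 2-sided, threshold 0.05. The code was tested on simulated data. Array medians lay between 5.28 and 5.43, no arrays of a group were identical, and array number sets the precision. Sex was read from Xist and Y-linked genes. Members and lists were chosen with earlier results of these data known. Named were Klf3, the called genes, the 10 next by p, the 3 lowest p of each list, and, for the difference between populations, the called genes and the 5 lowest p among other genes called in TER119 positive cells. Alternatives changed the filter, arrays, covariates (sex, hepatocyte list, replicate number), probe set choice, centring, variance model and single replicates; 2 on sex were added after seeing the data. Sex-linked genes served only to read sex.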

Additional observations from a re-analysis of the deposited data

Results flagged for a closer look

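The effect of the knockout label differed between TER119 negative and positive cells, by a test of the difference, for 15 named genes. The effect in TER119 negative minus that in TER119 positive cells was 1.74 for Bcl2l15, 1.03 for Serpinb6a and 0.72 for Bbs12. Serpinb6a passed in only 10 of 25 other settings and Bbs12 in 6 of 24. The same difference was -3.90 for Rragd, -3.51 for Pqlc3, -2.73 for both Supt3 and Lgals3, -2.55 for Hydin and -2.54 for Cttnbp2nl. For Klf8 the value was -2.31, for C1qtnf12 -2.29, for Setd4 -1.89, for Dffb -1.67, for Rsad2 -1.41 and for Arl15 -1.36.

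Among 56 gene groups and 18 list groups of 4 arrays checked for a lone value, 2 were marked. That is no more than chance alone would mark, about 1 in 20. KO-labelled replicate 2, the male array, had the highest Mir532 value of its group (4.47, beside 4.42 in the other 3). Those 3 values were identical, so any other value would have been marked. KO-labelled replicate 1 had the highest mean of the neutrophil and granulocyte precursor markers, 9.31.

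One probe set without a gene name, 10341193, lay outside the comparisons of genes and passed when all 35399 probe sets were fitted. It read 5.86, 5.94, 5.91 and 5.75 in KO-labelled and 4.85, 4.21, 4.49 and 4.09 in WT TER119 negative cells, a difference of 1.46 (limma, adjusted p = 0.00183). In TER119 positive cells it differed by 0.81 (adjusted p = 0.0609).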

How the results depend on the processing

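The count of 17 genes was 31 with array weights, 10 with the hepatocyte-list covariate, 7 with a sex factor, 1 with a sex factor per population, 2 with male TER119 negative arrays only, 4 with the fit limited to that population's arrays, and 8 without the 3 arrays apart. It was 8 to 24 with single replicates left out, 8 without KO-labelled replicate 3 and without WT replicate 2, and 11 without KO-labelled replicate 2. It was 12 with the filter on dim genes, 16 with a trended robust variance, 18 after median centring (which moved the all-gene median by 0.05) and 19 with probe sets averaged. The count of 203 in TER119 positive cells was 386 with array weights, 350 with its own arrays only, 323 without the 3 arrays, and 148 to 184 without single replicates. The count of 87 for the difference between populations was 43 with the filter on dim genes and 61 to 93 without single replicates. The causes were not tested, except that the filter tests fewer genes and the smaller fits use fewer arrays. With the replicate block, set within each population, the count in TER119 negative cells was 10. Same-numbered KO-labelled and WT TER119 negative arrays correlated between -0.38 and 0.65 in their deviations. Of the KO-labelled arrays 1 of 4 correlated best with its own number, so the numbers showed no clear pairing across the genotypes. Whether they pair the TER119 negative and positive fractions of a liver was not tested. Of 680 list medians recomputed, 635 moved by less than the spread between replicates and 45 did not. That spread can be wide beside a median. For the KLF1-activated list the array means had an SD of 0.27 in KO-labelled and 0.33 in WT TER119 negative arrays. Its median of 0.33 went as low as 0.09 in other settings. The number of arrays, and not depth, limits these values, and dim probe sets have no detection call.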
